A study of Mus musculus with 2 samples.

Results

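The genes described here are those of arginase and of polyamine synthesis, taken by symbol as the rows of the deposited read count table that name Arg1, Arg2, Ass1, Oat, Odc1, Srm, Sms, Sat1, Oaz1 or Azin1. Of these 10 genes, 9 were matched among the 14774 genes of the table, and Arg2 was not analysed here. The list was selected on this same comparison, with the mapped reads of both libraries known, so the members' folds are given as a description and no test is made of them. RNA was sequenced from C57BL/6 mouse splenic cells labelled CD4+CD25+ regulatory T cells (Tregs), which had spent 5 days in co-culture with SVEC4-10, an SV40-transformed endothelial cell line of the mouse. In the control co-culture the endothelial cells had received a control oligo, and in the knockdown co-culture small interfering RNA against Capns1, the gene of the small regulatory subunit of the calpain proteases. The labels do not say how many animals the cells came from.

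Each co-culture gave 1 library, called here the control library and, for the knockdown co-culture, the siRNA library, so the spread between cultures is unknown and no p-value is given. The deposited totals were 48100576 reads in the control library and 47300284 reads in the siRNA library. Capns1 itself stood at 243 and 236 CPM (reads scaled to the size of the library), but only the endothelial partner received the interfering RNA, and its share of the sequenced RNA was not measured, so this does not check the labels. Foxp3, the defining factor of Tregs, had 250 and 221 reads (5.22 and 4.73 CPM), while the B cell gene Cd79a stood at 559 and 517 CPM and the myeloid lysozyme gene Lyz2 at 875 and 643 CPM. The RNA therefore held transcripts of several cell types in both libraries, and the cells in which each gene below was expressed were not measured. In such mixed RNA, fewer cells of a type and less RNA per cell cannot be told apart.

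Arginase hydrolyses arginine to ornithine and urea. Ornithine is then either passed to glutamate and proline or decarboxylated to putrescine, from which the polyamines spermidine and spermine are built, small cations that bind nucleic acids and support translation and growth. In mouse macrophages Arg1 is known as a gene of alternative activation, induced by interleukins 4 and 13, and its product competes with the inducible nitric oxide synthase for arginine.

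A single member, Arg1, stood more than 2-fold apart between the libraries, and it was lower in the siRNA library. The enzymes beside and after it did not share this direction. Ass1, Oat, Odc1, Srm and Sms were higher by between 1.10 and 1.19 times, the regulators Oaz1 and Azin1 by 1.08 and 1.05 times, and the catabolic gene Sat1 was close to equality. By the rule of a fold of at most 0.5 with a 95% interval below 1, 1 of 9 members was lower, where 0.135% of all listed genes were. By the mirror rule, a fold of at least 2, none of the members was higher, where 0.00677% of listed genes were. With a threshold of 1.5 in place of 2, the counts stayed at 1 lower and 0 higher. The lower and higher shares of listed genes are not directly comparable. Listed genes start at 100 reads in the control library but at 37 in the siRNA library. A gene with few control reads and more siRNA reads would be missing from the higher share. How much of the gap between the shares comes from this was not tested. Intervals of the read ratio lay above 1 for 7 of the 9 members and below 1 for 1, where 24.2% and 22.7% of all listed genes had them there. These shares are not like for like, since intervals narrow with more reads. The median level in the control library was 82.3 CPM for the members and 29.8 CPM over all listed genes. The median log2 fold of the 9 members was 0.13, against 0.00 over all listed genes.

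**Figure D1:**
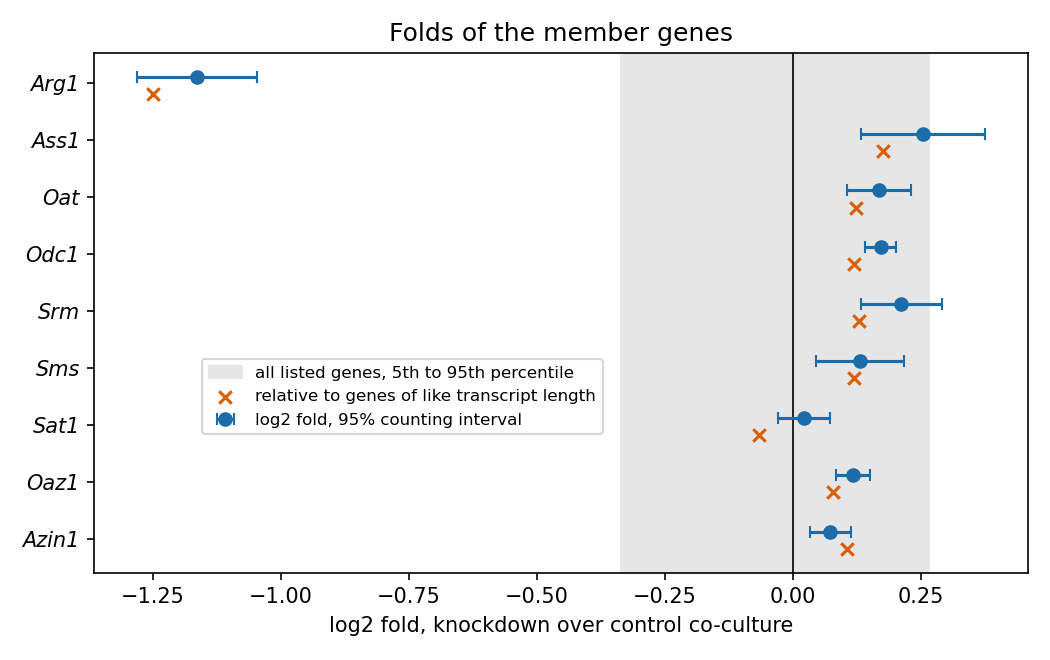
Log2 fold of each member gene from its CPM, siRNA over control library (x axis), with exact 95% intervals that cover counting error only. Crosses give the fold relative to genes of like transcript length, and the grey band spans the 5th to the 95th percentile of all listed genes (-0.34 to 0.27). Arg1 lies at -1.16, outside the band, and the other 8 members lie inside it.

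Arg1 (NCBI Gene 11846) encodes the cytosolic arginase. It had 1949 reads in the control library and 849 reads in the siRNA library. These correspond to 40.7 and 18.2 CPM, a fold of 0.446 with an exact 95% interval of 0.411 to 0.484. The interval compares the reads of these libraries, not the conditions, and it treats reads as independent, which PCR reads without molecular identifiers are not. Arg1 was the gene with the 11th lowest fold of the 14774. Its abundance was not extreme, since 49.5% of listed genes had a lower level in CPM. In the authors' deposited table its log2 ratio, scaled to equal totals, was -1.17.

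On either side of arginase stand Ass1, on the route that makes arginine, and Oat, which uses ornithine. Ass1 (NCBI Gene 11898) encodes argininosuccinate synthetase, which joins citrulline and aspartate on the way back to arginine. It had 1036 reads in the control library and 1206 in the siRNA library, a fold of 1.19 (95% interval 1.10 to 1.30). This was the highest fold among the members, and 94.3% of all listed genes had a lower one. Oat (NCBI Gene 18242), the mitochondrial ornithine aminotransferase that leads ornithine towards proline and glutamate, had 3943 and 4323 reads, a fold of 1.12 (1.08 to 1.17). Both genes were thus on the opposite side of equality from Arg1. Taken per length of transcript, the level of Ass1 was 0.463 of that of Arg1 in the control library and 1.24 times it in the siRNA library. For Oat the ratio to Arg1 went from 1.39 to 3.49.

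All 3 enzymes of polyamine synthesis were higher in the siRNA library by a small amount. Odc1 (NCBI Gene 18263) encodes ornithine decarboxylase, which makes putrescine and is the controlled entry step of the pathway. It had 16858 reads in the control library and 18526 in the siRNA library, a fold of 1.13 (95% interval 1.10 to 1.15). Srm (NCBI Gene 20810), spermidine synthase, had 2401 and 2714 reads, a fold of 1.16 (1.10 to 1.22). Sms (NCBI Gene 20603), spermine synthase, had 2131 and 2278 reads, a fold of 1.10 (1.03 to 1.16), and it has a pseudogene whose reads may be among them. Their summed level went from 446 to 503 CPM. All 3 intervals lay above 1 with reads treated as independent. Each of the 3 folds still lies within the range that holds 90% of all listed genes.

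Sat1 (NCBI Gene 20229) encodes the acetyltransferase that marks spermidine and spermine for export or oxidation. Its reads numbered 6152 in the control library and 6095 in the siRNA library, a fold of 1.02 (95% interval 0.980 to 1.05). It was the only member whose interval included 1. The level of Odc1 relative to Sat1, per transcript length, was 1.68 in the control library and 1.86 in the siRNA library.

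Ornithine decarboxylase is controlled after translation by a pair of proteins encoded by the remaining members. Oaz1 (NCBI Gene 18245) encodes antizyme, which binds the enzyme and delivers it to the proteasome, and Azin1 (NCBI Gene 54375) encodes an inactive relative of the enzyme that binds antizyme in its place. Oaz1 had 14591 reads in the control library and 15448 in the siRNA library, a fold of 1.08 (95% interval 1.06 to 1.11), and reads of its annotated pseudogene may be among them. Azin1 had 9964 and 10228 reads, a fold of 1.05 (1.02 to 1.08). The ratio of Odc1 to Oaz1 was 1.04 times as high in the siRNA library as in the control library, and that of Azin1 to Oaz1 0.9695 times. Reads of Oaz1 do not measure how much antizyme is made, because its full reading frame is reached only when ribosomes slip past an early stop codon, which polyamines are known to favour. The sequence of that place is shown here for this reason, from GENCODE M21 on GRCm38 (chr10:80828281-80828310, plus strand, transcript Oaz1-206), with the stop codon that lies in the first frame in capitals.
Oaz1: ctcggtggtgctccTGAtgtccctcaccca
Of 6 coding models of Oaz1 in that annotation, 3 leave out the single base at position 80828295, the first of the stop codon, to join the frames.

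**Figure D2:**
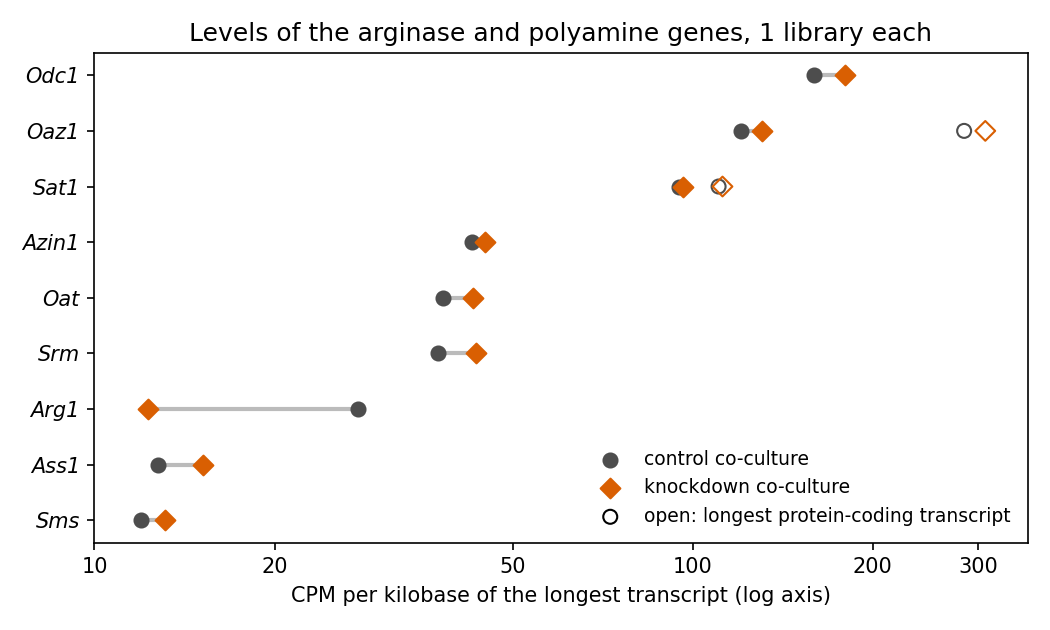
Level of each member in both libraries as CPM per kilobase of the gene's longest annotated transcript (log axis), with open symbols for the longest protein-coding transcript where that is another one. Odc1 was at 159 and 179 and Sms at 11.97 and 13.1 CPM per kilobase. Arg1 is the member whose symbols lie far apart, at 27.5 and 12.3.

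In level per kilobase of the longest transcript, the members of the control library ran from Odc1 at 159 CPM per kilobase over Oaz1 at 121 and Sat1 at 94.98 to Azin1 at 42.7, Oat at 38.2 and Srm at 37.5. Arg1 followed at 27.5, then Ass1 at 12.7 and Sms at 11.97. In the siRNA library Odc1 stood at 179 and Ass1 at 15.2, with Sms at 13.1 and Arg1 at 12.3, so that Arg1 went from the third lowest to the lowest of the 9. Not all neighbours in this order had separate intervals. The exact intervals of Oat (37.1 to 39.5) and Srm (36.0 to 39.0) overlapped in the control library, as did those of Ass1 (11.99 to 13.6) and Sms (11.5 to 12.5), and those of Sms (12.6 to 13.7) and Arg1 (11.5 to 13.1) overlapped in the siRNA library. The place of Oaz1 depends on the transcript. Its longest one retains an intron, and over its longest protein-coding transcript of 1071 bases it stood at 284 CPM per kilobase in the control library and 308 in the siRNA library, above Odc1.

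Across all genes the fold went with transcript length, and 7 of the 9 members have transcripts shorter than the median of 3375 bases. The median log2 fold was 0.09 in the 10% of genes with the shortest transcripts and -0.11 in the 10% with the longest. Folds were therefore also taken relative to the median of the genes nearest in transcript length, 250 on either side. On this scale Arg1 stood at 0.421, farther from equality than without this step. Ass1 stood at 1.13, Srm, Oat, Odc1 and Sms each at 1.09, Azin1 at 1.08 and Oaz1 at 1.06, all still above 1. Sat1 went from 1.02 to 0.955. With the lengths of protein-coding transcripts in place of the longest of any kind, Oaz1 stood at 0.0096 on the log2 scale, against 0.12 without the step.

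**Figure D3:**
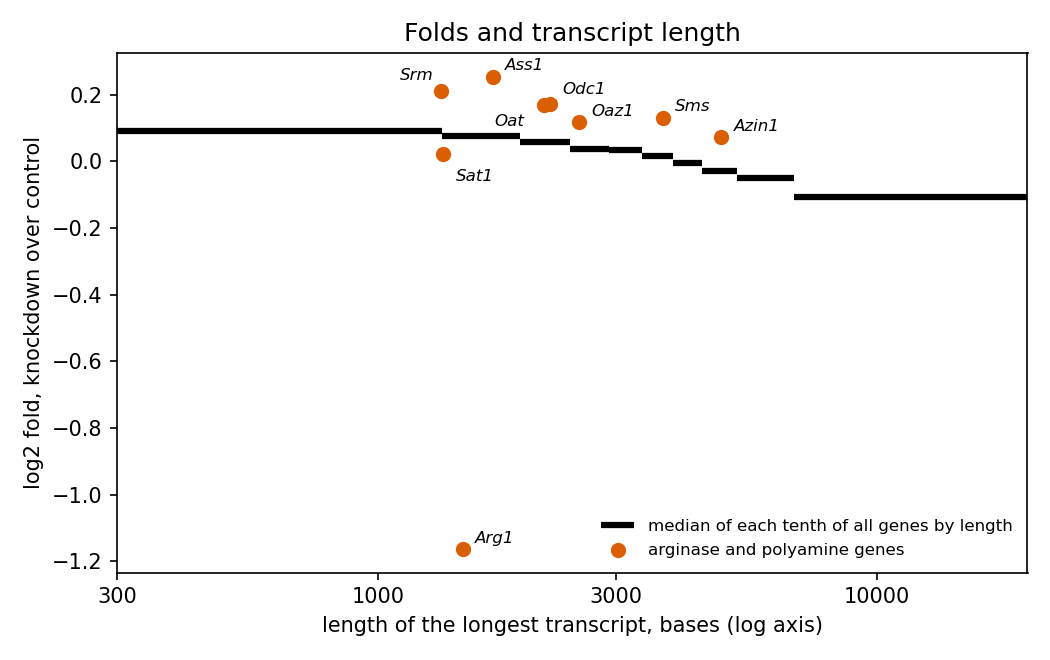
Log2 fold, siRNA over control library, against the length of the longest transcript (log axis) for the 9 members, with the median of each 10% of all genes by length as black lines (the outer lines are cut at the axis limits). Of the members, 7 lie above the median of their length class, and Sat1 and Arg1 lie below it.

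RefSeq promoters on GRCm38.p6, from 250 bases before to 50 bases after the start site, were matched by symbol for 6 of the 10 genes, with 7 promoters in all because Sms has a pair. They were searched for CACGTG, the core site of MYC and related factors, which reads the same on both strands. It was found in 2 of the 7 promoters, 1 of Ass1 and 1 of Sms, and in 7.15% of the 32851 promoters of this length in the table. The promoters of Ass1, the member with the highest fold, and of Odc1, the member best known as a MYC target, are shown to compare them, with any CACGTG in capitals. The Ass1 promoter lies at chr2:31470020-31470319 and that of Odc1 at chr12:17544623-17544922, both on the plus strand.
Ass1: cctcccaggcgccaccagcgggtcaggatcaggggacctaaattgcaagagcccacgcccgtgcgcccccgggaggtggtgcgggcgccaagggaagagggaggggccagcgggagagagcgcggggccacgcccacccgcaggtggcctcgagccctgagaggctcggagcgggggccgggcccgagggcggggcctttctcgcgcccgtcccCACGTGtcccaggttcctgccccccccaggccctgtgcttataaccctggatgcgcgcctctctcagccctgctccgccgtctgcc
Odc1: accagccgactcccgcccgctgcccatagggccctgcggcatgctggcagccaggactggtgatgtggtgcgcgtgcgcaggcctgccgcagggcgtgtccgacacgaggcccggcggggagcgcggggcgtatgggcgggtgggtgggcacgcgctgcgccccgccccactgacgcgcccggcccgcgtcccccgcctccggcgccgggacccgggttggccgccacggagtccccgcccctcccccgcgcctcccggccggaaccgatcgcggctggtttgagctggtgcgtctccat
In Ass1 the match ends 31 bases before the start site, and the window of Odc1 holds none of these letters in this order. Bases outside the windows were not searched, so whether Odc1 has the motif elsewhere is not shown. A match is a description of the sequence and not a site of binding. Myc itself had 5860 reads in the control library and 5783 in the siRNA library, a fold of 1.01 (95% interval 0.975 to 1.05).

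The other genes of arginine and polyamine metabolism were close to equality too. Of 61 further genes in 4 lists, 49 were matched in the table, and their log2 folds had a median of 0.07, a minimum of -0.29 and a maximum of 0.43. None was 2-fold apart. Intervals lay above 1 for 21 of them (42.9%, against 24.2% of all listed genes) and below 1 for 6 of them (12.2%, against 22.7%). Here too the shares are not like for like, since the median level in the control library was 49.6 CPM for the 49 and 29.8 CPM over all listed genes. Relative to genes of like transcript length, 28 of the 49 lay above 0 and 21 below, with a median of 0.04.

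Among the neighbours of arginine and ornithine, 14 of 23 genes were matched. Intervals lay above 1 for 8 (57.1%, against 24.2% of all listed genes) and below 1 for none (against 22.7%). The 3 most abundant were Aldh18a1, which makes the semialdehyde shared by ornithine and proline synthesis, at a fold of 1.07 (95% interval 1.05 to 1.10), the mitochondrial aspartate aminotransferase Got2 at 1.155 (1.13 to 1.18) and glutamate dehydrogenase Glud1 at 1.09 (1.06 to 1.12). Prodh, which begins the breakdown of proline, had the lowest fold of the list at 0.902 (0.679 to 1.20), with 109 and 96 reads, and its interval includes 1. The nitric oxide synthase genes Nos1, Nos2 and Nos3 were not analysed here.

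Of 19 further polyamine genes 18 were matched. Intervals lay above 1 for 6 (33.3%, against 24.2% of all listed genes) and below 1 for 2 (11.1%, against 22.7%). Ahcy, which clears S-adenosylhomocysteine, had the highest fold at 1.22 (95% interval 1.16 to 1.28). The lowest was that of Azin2, a second antizyme inhibitor, at 0.873 (0.745 to 1.02). Of the most abundant, Mat2a, which makes S-adenosylmethionine, stood at 0.955 (0.925 to 0.986) and the antizyme gene Oaz2 at 1.10 (1.06 to 1.14), with Myc as given above. Amd1, the decarboxylase that supplies the aminopropyl groups, stood at 1.13 (1.08 to 1.18). It was named for its role after its value was seen, and its reads may be mixed with those of the near-identical Amd2, at 1.09 (1.02 to 1.17).

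Spermidine is also the source of hypusine, a modified lysine that the translation factor eIF5A needs, and all 4 genes of that list were matched. Eif5a had 27018 reads in the control library and 30159 in the siRNA library, a fold of 1.14 (95% interval 1.13 to 1.16). Dohh, the hydroxylase that completes hypusine, had the highest fold at 1.28 (1.21 to 1.35), and Dhps, the synthase that begins it, stood at 1.04 (0.963 to 1.11). Eif5a2, the second eIF5A gene, was on the other side at 0.876 (0.807 to 0.9504).

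Transporters of arginine, ornithine and polyamines were matched for 13 of 15 genes. Intervals lay above 1 for 5 (38.5%, against 24.2% of all listed genes) and below 1 for 3 (23.1%, against 22.7%). The main arginine importer gene Slc7a1 had 19255 and 19171 reads, a fold of 1.02 (95% interval 0.9999 to 1.04, which includes 1), and Slc3a2, the shared heavy chain of amino acid exchangers, stood at 1.05 (1.03 to 1.07). Atp13a3, a polyamine transporter, stood at 0.891 (0.867 to 0.917). The lowest fold was that of Slc7a7, an arginine exporter expressed by macrophages among others, at 0.820 (0.685 to 0.981), with 280 and 224 reads. The highest was that of Slc25a29, a mitochondrial carrier of basic amino acids, at 1.35 (1.10 to 1.65), with 175 and 230 reads.

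**Figure D4:**
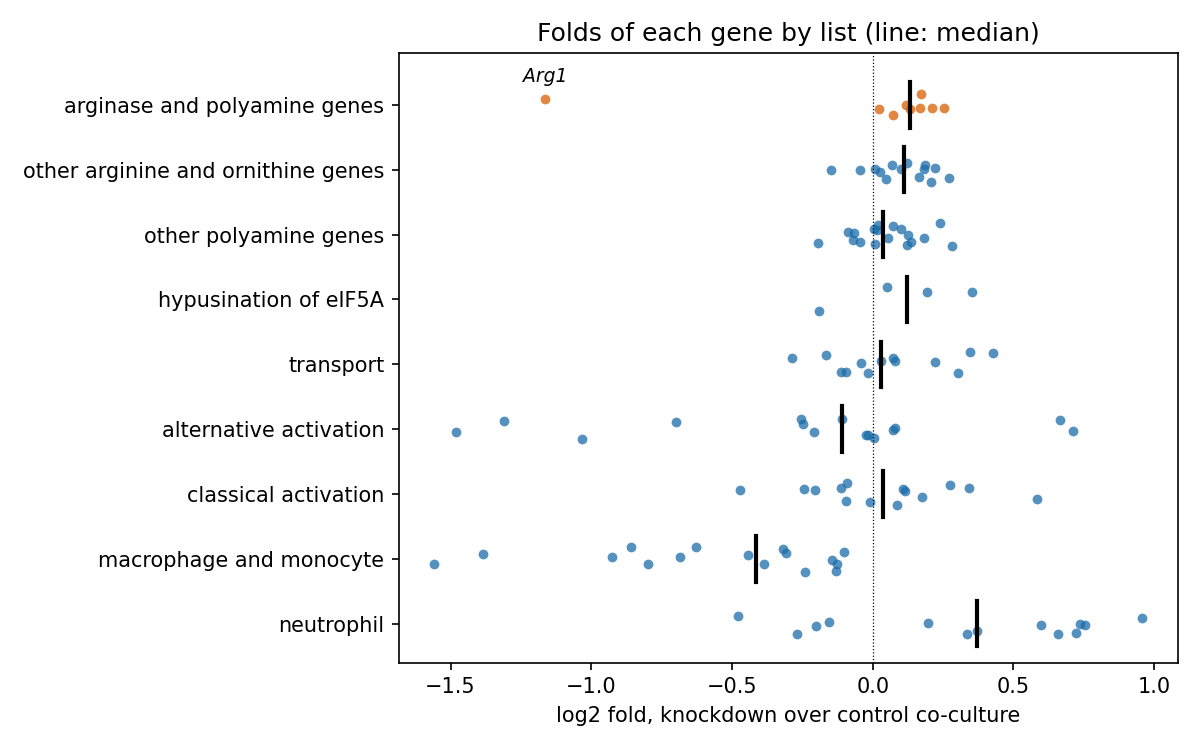
Log2 fold of each gene, siRNA over control library (x axis), by list, with a line at each list's median. The arginase and polyamine genes other than Arg1 lie between 0.02 and 0.25, and the macrophage and monocyte markers all lie below 0, with a median of -0.42.

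Markers of macrophages and monocytes were lower together with Arg1. Of 20 markers 16 were matched, and C1qa, Vsig4, Marco and Cx3cr1 were not analysed here. Intervals of the 16 lay below 1 for 15 (93.8%, against 22.7% of all listed genes) and above 1 for none (against 24.2%). Their median level in the control library was 28.3 CPM, against 29.8 CPM over all listed genes. Together the 16 summed to 1633 CPM in the control library and 1238 CPM in the siRNA library, 0.758 times as high. The most abundant were Lyz2 at a fold of 0.735 (95% interval 0.725 to 0.746), Mpeg1, a pore-forming protein of phagocytes, at 0.764 (0.743 to 0.786) and the integrin gene Itgam at 0.801 (0.771 to 0.832). The folds ran from 0.338 (0.251 to 0.451) for C1qc, a complement chain made by macrophages, to 0.932 (0.893 to 0.972) for Ly6c2, a monocyte antigen. Arg1 was lower than 14 of the 16 markers in fold. Per 1000 CPM of the summed markers there were 24.9 CPM of Arg1 in the control library and 14.7 in the siRNA library, so Arg1 stood at 0.589 times the level that a change in step with the sum would give. The part of macrophage RNA in the fold of Arg1 was not tested.

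**Figure D5:**
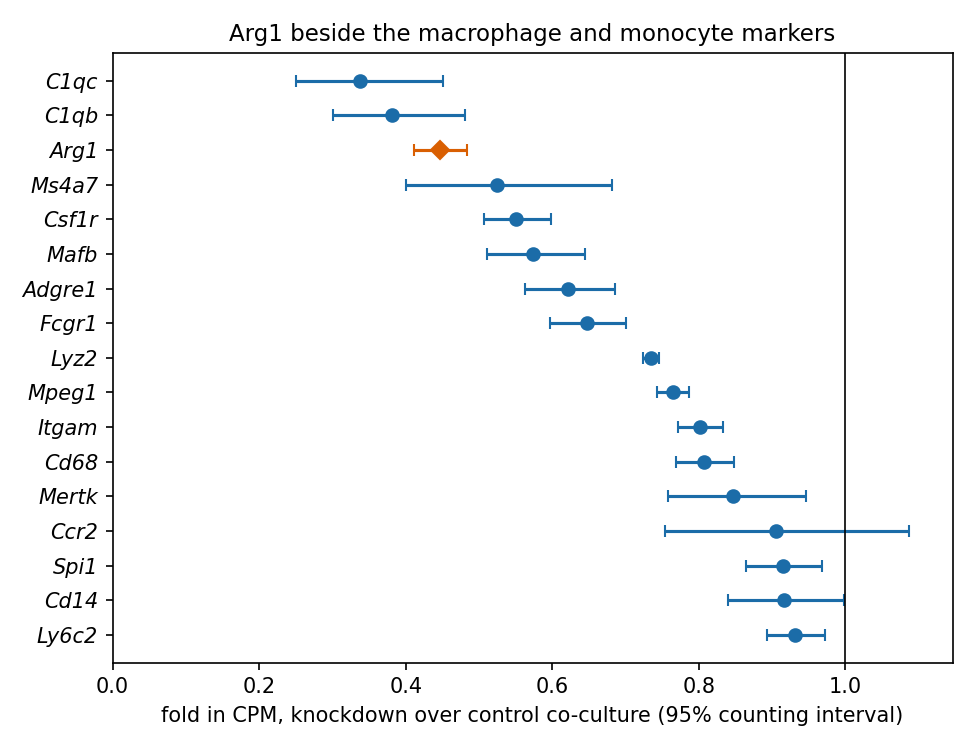
Fold of the CPM, siRNA over control library (x axis, linear from 0), of Arg1 (diamond) and the 16 macrophage and monocyte markers matched in the table, with exact 95% intervals covering counting error only. Arg1 at 0.446 lies below 14 markers and above C1qb and C1qc.

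Genes of alternative activation, the state in which Arg1 is best known, did not share 1 direction. Of 21 genes 15 were matched, with a median log2 fold of -0.11. Intervals lay below 1 for 7 (46.7%, against 22.7% of all listed genes) and above 1 for 3 (20%, against 24.2%). At least 2-fold lower were 3 of the 15, where 0.135% of all listed genes were. They were F13a1, a coagulation factor chain, at 0.358 (95% interval 0.306 to 0.417), the mannose receptor Mrc1 at 0.403 (0.346 to 0.468) and the scavenger receptor Msr1 at 0.488 (0.463 to 0.516). The last pair was named after their values were seen. The highest fold was that of Chil3, a chitinase-like protein used as another mark of this state and also abundant in immature neutrophils, with 2404 reads in the control library and 3847 in the siRNA library, a fold of 1.64 (1.56 to 1.73). The 3 most abundant genes of the list were Stat6 at 0.988 (0.958 to 1.02), the receptor gene Il4ra at 0.926 (0.894 to 0.960) and Cebpb, a transcription factor of the Arg1 enhancer, at 1.06 (1.02 to 1.09). The transcription factor gene Irf4 of the same list was lower, at 0.842 (0.800 to 0.887), and was named after its value was seen.

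Neutrophil markers lay mostly on the other side from the macrophage markers. Intervals lay above 1 for 9 of 13 (69.2%, against 24.2% of all listed genes) and below 1 for 4 (30.8%, against 22.7%). The summed level of the 13 was 501 CPM in the control library and 676 CPM in the siRNA library. In the list of classical activation 14 of 18 genes were matched, with a median log2 fold of 0.04. It had 3 intervals above 1 and 3 below (21.4% each, near the shares over all listed genes). Its median level in the control library was 8.23 CPM, against 29.8 CPM over all listed genes. Among its most abundant genes were Irf5 at 0.992 (95% interval 0.953 to 1.03) and the NAD glycohydrolase gene Cd38 at 0.867 (0.831 to 0.904). Its range ran from the costimulatory ligand Cd86 at 0.721 (0.652 to 0.796) to the chemokine Cxcl10 at 1.501 (1.32 to 1.70). For the other marker lists, summed levels in the control and siRNA libraries were 3015 and 2691 CPM for B and plasma cells. They were 304 and 296 CPM for T cells and Tregs and 748 and 712 CPM for dendritic cells. Markers of matrix-producing cells summed to 2906 and 2805 CPM, and those of erythroid cells and platelets to 2624 and 2352 CPM. The 5 endothelial markers matched of 14 summed to 115 and 112 CPM. Such sums follow the most abundant genes of a list. Median log2 folds were -0.17, -0.07, -0.17, -0.009, -0.15 and -0.011 in the same order. Of the 8 matched erythroid and platelet genes, 1 was at least 2-fold lower (0.135% of all listed genes were), and none of the other lists' genes was.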

How the data were processed

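The authors deposited 1 table of mapped read counts per gene, not normalized, per the file headers. Counts scaled by the authors to equal totals and by TMM factors (unit signal), and the authors' log2 ratios in an unnamed column, were also deposited, and of these only the log2 ratio of Arg1 is printed. The submitters' processing notes name Trimmomatic 0.39, BWA 0.7.17, mm8 and GRCm39 with no roles. For the counting of reads, no tool is given in the sources used here. Reads of paralogs, pseudogenes (Oaz1, Sms and Amd1 have annotated ones) and antisense genes may therefore be mixed. Columns were matched to samples by their prefixes, Cont for control and Si for interfering RNA, on which every direction rests.

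The row of totals was left out of library sizes, and 0.782% and 0.764% of the totals belong to no listed gene. The lowest values are 100 reads in the control library and 37 in the siRNA library. CPM used edgeR 4.0.16 TMM factors (1.004 and 0.996, R 4.3.3). Folds carry exact 95% Clopper-Pearson intervals of the read ratio and level intervals are exact Poisson, computed in Python 3.11.15 with scipy 1.17.1. Log2 folds used a prior count of 0.5. Lengths came from GENCODE M21, matched by NCBI Gene ID or symbol for 90.6% of genes. With 1 library per group no model was fitted. The steps were tested on simulated data.

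The members and lists were chosen with earlier results of these data known. Named genes are all members and, of each pathway, activation and macrophage list, the 3 most abundant and the lowest and highest in fold. Some genes that this rule names are not reported here. Alternatives were DESeq2 1.42.0 size factors, total, upper-quartile and no scaling, other thresholds, a 5 CPM minimum, a prior count of 5, the mean, and transcript length.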

Additional observations from a re-analysis of the deposited data

How the results depend on the processing

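No paired analysis was possible because each group has 1 library, and no library could be left out for the same reason. Arg1 was the only member at least 2-fold lower, and none was at least 2-fold higher, under each scaling, threshold, filter and length setting run. The median log2 fold of the members was 0.13, while their mean was -0.0016, which by its construction takes in Arg1. For the macrophage and monocyte markers the median was -0.42 and the mean -0.57. With the longest protein-coding transcript as the length, a setting chosen after seeing the data, 1 member (Oaz1) stood above Odc1 in level, where 0 did with the longest transcript. DESeq2 size factors, total reads and upper-quartile scaling moved every log2 fold by -0.00080, -0.011 and -0.014. Without scaling, Odc1 stood at 0.14 and Oaz1 at 0.08 on the log2 scale. Each member has at least 849 reads in a library, and with no replicates the spread between cultures is unknown. Listed genes start at 100 control reads, so genes with fewer are not analysed here.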

Other observations

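Among genes outside the lists, the amino acid transporter gene Slc7a8 lay just outside the 2-fold limit, with 941 reads in the control library and 460 in the siRNA library, a fold of 0.501 (95% interval 0.447 to 0.561). It was picked after its value was seen, because it is the listed gene next to that limit. Its light chain pairs with the product of Slc3a2, which stood at 1.05 (1.03 to 1.07). In which cells either gene was expressed was not measured.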
